A study of Rattus norvegicus with 4 samples.

Results

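The genes described here encode the nuclear subunits of the mitochondrial respiratory chain and of ATP synthase, together with assembly factors and an inhibitor that carry the same names, in rat INS-1 cells. INS-1 is an established line, grown from an insulinoma of the rat, that secretes insulin and serves as a model of the pancreatic beta cell. Members were all genes on the array whose single annotated symbol begins with Nduf, Uqcr, Cox4 to Cox8 or Atp5, or is Cyc1 or Cycs, and each gene was represented by its brightest probe set over the 4 arrays. The rule found 89 genes among 14557 with a single-symbol probe set. It gave 44 genes of complex I, 8 of complex III, 17 of complex IV and 20 of ATP synthase.

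The study asked how gene expression in this line differs under a glucotoxic condition, meaning prolonged culture in high glucose. The culture lasted 7 days, in 22.4 mM glucose for 2 arrays and in 11.2 mM glucose for 2 arrays, with no other agent or allele named in the labels, and total RNA was hybridised to Affymetrix arrays. The labels number the arrays of each glucose level as replicates 1 and 2 but do not say that they came from separate cultures, so a p-value covers only how far these arrays spread, and that spread may be technical. Each array measured RNA of a whole culture, in which fewer cells of a kind and less RNA per cell cannot be told apart. Signals are log2 values as deposited, with base 2 taken from their range, and every difference is 22.4 mM minus 11.2 mM on that scale, so that 1 unit is a 2-fold difference.

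Complex I takes electrons from NADH and complex III from reduced coenzyme Q, and cytochrome c carries them on to complex IV, which reduces oxygen. The protons pumped on the way drive ATP synthase. In beta cells the ATP made in this way closes ATP-sensitive potassium channels and so couples glucose metabolism to insulin secretion. Most subunits are encoded in the nucleus, and a small set of core subunits in mitochondrial DNA. No mitochondrially encoded subunit was named by the annotation used here, so none of those was analysed.

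Array medians over all 36685 probe sets lay between 4.73 and 4.80. Of 8 beta cell markers 6 were named on the array, and all 6 were at or above the median probe set signal of 4.76, with array values from 6.79 to 12.57. Among 8 measured markers of other cell classes 2 reached that signal. These were Gcg, the glucagon gene of alpha cells, with 11.14 and 11.08 at 22.4 mM against 11.24 and 11.07 at 11.2 mM, and the collagen gene Col1a1, with 5.22 and 5.34 against 5.50 and 5.23. Among the beta cell markers, the insulin gene Ins2 had 8.73 and 8.84 at 22.4 mM against 10.68 and 10.56 at 11.2 mM, and Mafa, a regulator of insulin genes, had 7.36 and 7.34 against 8.12 and 7.72. The part of these markers in the results below was not tested.

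After a week in 22.4 mM glucose the messenger RNAs of the respiratory chain and ATP synthase stood close to their levels in 11.2 mM. None of the 89 members passed limma's test with Benjamini-Hochberg adjustment over all probe sets, and the lowest adjusted p among them was 0.515. The share of all probe sets called was 0%. At an unadjusted p under 0.05 there was 1 member higher, Ndufb10, against 4.36% of all probe sets, and 1 lower, Ndufb2, against 4.75% of all probe sets. The median difference over the members was -0.0062, and over all single-symbol genes -0.0038. Differences ran from -0.31 for Ndufb2 to 0.44 for Atp5mf, with 43 positive and 46 negative, and 56 members differed by less than 0.1 in either direction.

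The precision of these arrays sets how large a difference between them could have been missed. As their spread may be technical, the intervals may not cover spread between cultures. The median standard error of a member's difference was 0.11. The 95% interval lay within 1 log2 unit of 0, that is, inside a 2-fold difference either way, in 88 of 89 members and in 92.6% of all probe sets. The exception was Atp5mf. It lay within 0.5 log2 unit in 72 members and in 58.3% of all probe sets. With 2 arrays against 2 an exact two-sided permutation test of a single gene cannot go below p = 0.333.

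**Figure D1:**
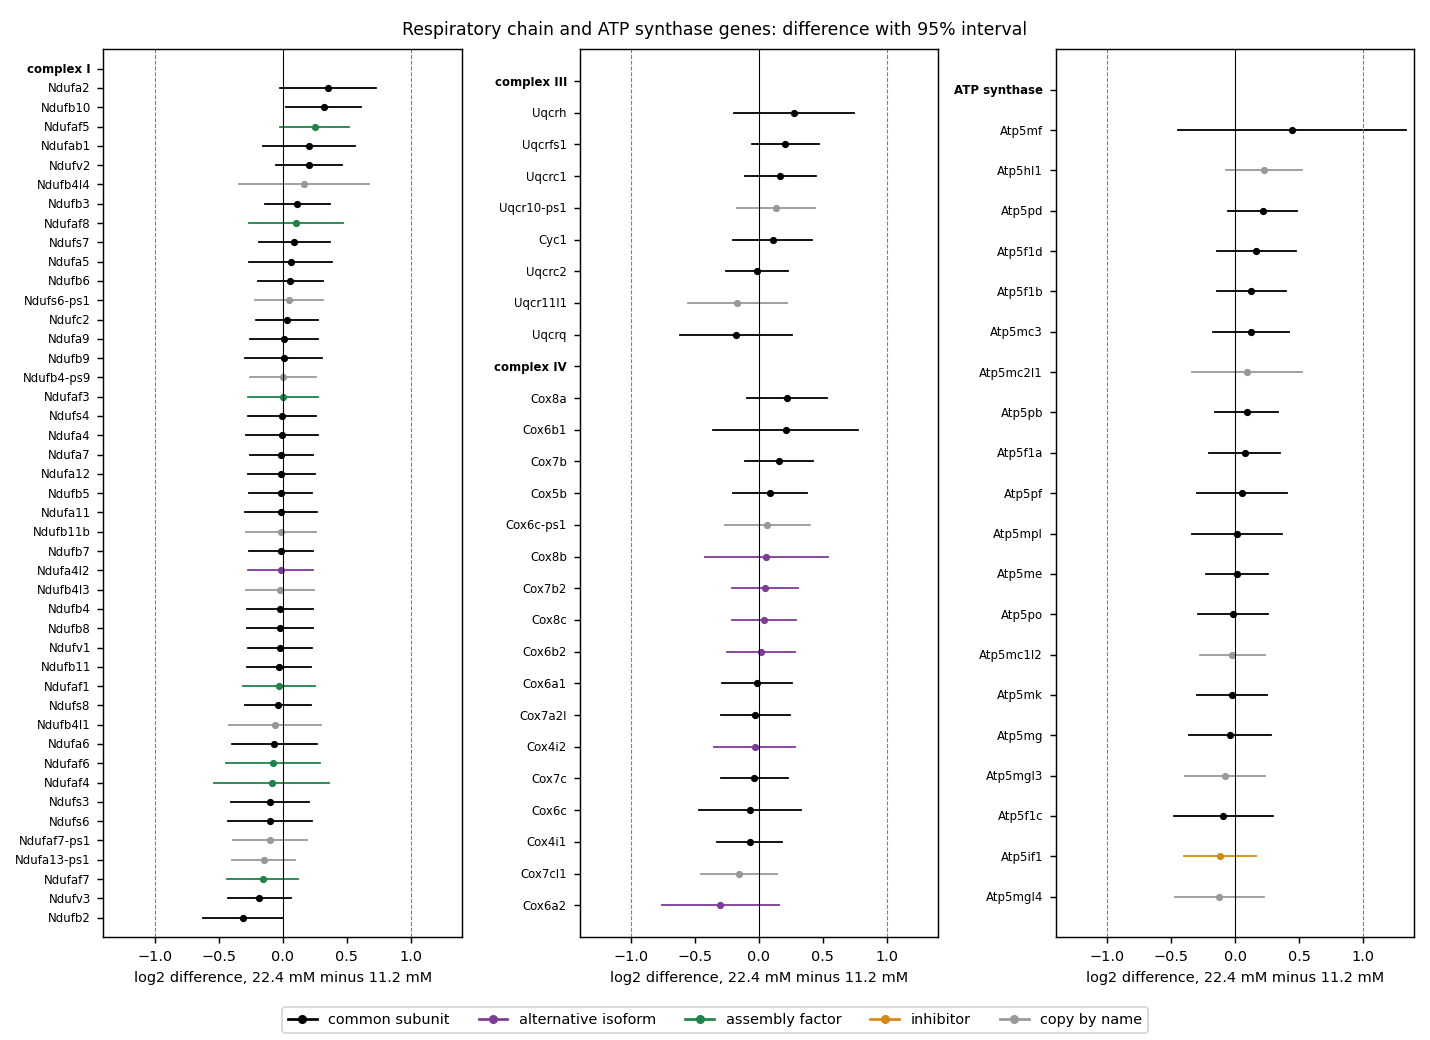
Log2 difference (x axis, 22.4 mM minus 11.2 mM, points) with its 95% interval from limma (lines) for each of the 89 members, grouped by complex and coloured by role. Dashed lines mark a 2-fold difference in either direction; only the interval of Atp5mf reaches past one of them.

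The promoters of these genes were searched for sequence features that the choice of members did not use. NRF1, the ETS factor GABPA and YY1 are transcription factors known in mammals for binding the promoters of nuclear respiratory genes. RefSeq windows of 300 bases, from 250 bases before to 50 after the annotated start on assembly GRCr8, were matched for 71 of the 89 members. Of these, 52 were common subunits, meaning subunits other than alternative isoforms, assembly factors, the inhibitor and copies by name. Both strands were searched for the letters GCATGCGC or GCGCATGC (overlapping 8-letter strings, both held by the longer NRF1 palindrome), CCGGAAG (ETS), AAGATGG (YY1) and TGACCTTG (ERRA). The NRF1 letters were found in 6 of 52 windows of common subunits (11.5%), against 3.11% of 21851 windows of protein-coding genes. The ETS letters stood in 15 (28.8%), against 10.7%, and the YY1 letters in 16 (30.8%), against 7.29%. The ERRA letters stood in 2 (3.85%), against 1.26%. The GC content was similar, with a median of 55.8% in common subunits and 55% in protein-coding genes. At least 1 of the NRF1, ETS and YY1 letter strings was present in 26 of the 52 windows (50%), against 19.3%.

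**Figure D2:**
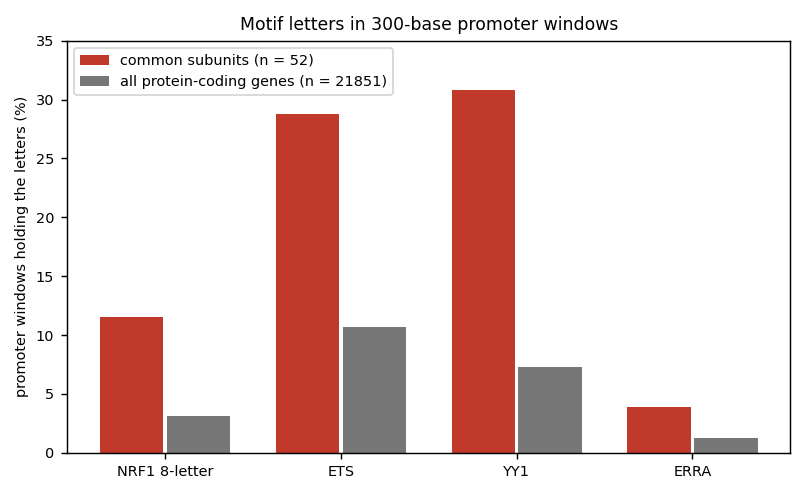
Share of 300-base promoter windows (y axis, percent) that hold the letters of each motif (x axis) on either strand, for 52 common subunits of the respiratory chain and ATP synthase (red) and for all 21851 protein-coding windows (grey). The red bar is higher for each of the 4 motifs, and the tallest is YY1 at 30.8%.

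Windows that show both ends of this range are printed here 5′ to 3′ on the gene's own strand, with every motif match in capitals. Atp5me, a membrane subunit of ATP synthase, and Ndufa6, an accessory subunit of complex I, are the 2 common subunits whose windows hold NRF1, ETS and YY1 letters together, as do 14 of the 21851 protein-coding windows. Atp5mf and Ndufb2 are the members with the most positive and the most negative difference between the glucose groups.
Atp5me (chr14:1464610-1464909, plus strand): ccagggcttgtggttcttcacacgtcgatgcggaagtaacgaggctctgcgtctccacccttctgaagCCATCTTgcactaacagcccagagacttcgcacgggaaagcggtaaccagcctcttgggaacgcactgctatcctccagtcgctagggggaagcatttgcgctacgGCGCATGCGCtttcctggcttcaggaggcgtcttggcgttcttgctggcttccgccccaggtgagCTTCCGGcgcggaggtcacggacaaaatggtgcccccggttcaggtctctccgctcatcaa
Ndufa6 (chr7:115750268-115750567, minus strand): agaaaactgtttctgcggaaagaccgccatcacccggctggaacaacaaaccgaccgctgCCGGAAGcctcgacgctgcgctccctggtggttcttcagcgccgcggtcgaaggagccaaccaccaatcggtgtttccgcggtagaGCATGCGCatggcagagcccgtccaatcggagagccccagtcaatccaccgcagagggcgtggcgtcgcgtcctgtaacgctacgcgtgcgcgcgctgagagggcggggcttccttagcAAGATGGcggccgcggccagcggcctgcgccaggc
Atp5mf (chr12:14535185-14535484, plus strand): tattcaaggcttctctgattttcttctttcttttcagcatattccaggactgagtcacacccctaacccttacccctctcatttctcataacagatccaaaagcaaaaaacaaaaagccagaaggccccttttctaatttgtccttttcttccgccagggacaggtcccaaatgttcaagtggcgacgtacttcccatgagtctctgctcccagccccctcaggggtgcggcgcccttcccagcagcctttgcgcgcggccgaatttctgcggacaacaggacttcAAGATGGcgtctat
Ndufb2 (chr4:69334057-69334356, plus strand): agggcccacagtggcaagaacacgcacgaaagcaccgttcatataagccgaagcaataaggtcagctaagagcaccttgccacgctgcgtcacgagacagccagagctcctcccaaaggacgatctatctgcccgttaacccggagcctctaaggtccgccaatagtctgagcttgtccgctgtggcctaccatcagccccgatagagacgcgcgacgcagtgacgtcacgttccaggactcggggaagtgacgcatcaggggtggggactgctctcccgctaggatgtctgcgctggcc
In Atp5me the NRF1 palindrome begins 76 bases before the start, the ETS letters begin 11 bases before it and the YY1 letters 182 bases before it, those of ETS and YY1 on the opposite strand. In Ndufa6 the NRF1 letters begin 104 bases and the ETS letters 190 bases before the start, and the YY1 letters begin at base 16 of the transcript. The Atp5mf window holds only the YY1 letters, at base 37, and the Ndufb2 window holds none of the strings searched. AAGATGG contains an ATG and can overlap the start of the coding sequence, so a match there is a match of letters.

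The 16 common subunits with YY1 letters had a median difference of 0.011, and the 36 without had -0.0098. The 15 with ETS letters had -0.016, against 0.0086 in the 37 without. The 6 with NRF1 letters had -0.018, with a range from -0.065 to 0.17, against 0.012 in the 46 without. The 2 with ERRA letters, Atp5mc3 and Cox8a, had differences of 0.12 and 0.22, against a median of -0.0061 in the 50 without. The groups did not overlap in these 2 and in 18 of the 50, against 40.6% of all probe sets. For YY1 they did not overlap in 5 of the 16 with the letters and in 15 of the 36 without. For ETS the counts were 5 of 15 and 15 of 37, and for NRF1 2 of 6 and 18 of 46. Cox8a also holds the ETS and YY1 letters. Atp5me, which holds the NRF1, ETS and YY1 letters, had signals of 8.986 and 9.002 at 22.4 mM against 8.979 and 8.982 at 11.2 mM. Ndufa6 had 8.58 and 8.69 at 22.4 mM against 8.82 and 8.58 at 11.2 mM, and its groups overlapped. These are descriptions with no test.

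Complex I, the NADH dehydrogenase, had a median difference of -0.016 over its 44 genes, with 17 positive and 27 negative. Of the 5 core subunits measured, which carry the flavin and iron-sulfur centres or bind the quinone, 4 differed by less than 0.1. Ndufv1, which binds NADH and flavin, had 9.03 and 9.03 at 22.4 mM against 9.02 and 9.09 at 11.2 mM, a difference of -0.024 (SE 0.095, 95% interval -0.27 to 0.23). Ndufv2, its iron-sulfur partner, had 10.09 and 10.08 at 22.4 mM against 9.93 and 9.83 at 11.2 mM, and both high-glucose arrays lay above both others, with a difference of 0.21 (SE 0.098). Ndufs3, Ndufs7 and Ndufs8, of the arm that leads electrons to quinone, differed by -0.097, 0.088 and -0.037, and the groups overlapped in each.

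The complex I members farthest from 0 were accessory subunits and an assembly factor. Ndufa2, an accessory subunit with a thioredoxin-like fold, had 7.76 and 7.70 at 22.4 mM against 7.21 and 7.54 at 11.2 mM. The groups did not overlap, the difference was 0.35 (SE 0.14, adjusted p = 0.562, limma), and without replicate 1 of 11.2 mM it was 0.19. Ndufb10, a membrane-arm subunit, had 8.09 and 8.27 at 22.4 mM against 7.83 and 7.89 at 11.2 mM, again without overlap. Its difference of 0.32 (SE 0.11, unadjusted p = 0.038, adjusted p = 0.515, limma) was a 1.25-fold higher signal, and it lay between 0.23 and 0.41 when any 1 array was left out. Ndufb2, another membrane-arm subunit, stood on the other side, with 9.27 and 9.41 at 22.4 mM against 9.73 and 9.56 at 11.2 mM. Its difference was -0.31 (SE 0.12, unadjusted p = 0.049, adjusted p = 0.545, limma), a 1.24-fold lower signal, and ranged from -0.40 to -0.22 with any 1 array left out. Ndufb2 and Ndufb10 sit in the same arm and had differences of opposite sign.

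Ndufv3, a small accessory subunit next to Ndufv1, had 8.96 and 8.97 at 22.4 mM against 9.13 and 9.17 at 11.2 mM on the brighter of its 2 probe sets, a difference of -0.18 (SE 0.094). Its other probe set differed by 0.088, so the probe sets did not share a sign, and their mean differed by -0.048. The same was true of Ndufb3, with 0.11 on the brighter probe set and -0.056 on the other. By family, the 9 Ndufa subunits ran from -0.065 to 0.35, the 10 Ndufb subunits from -0.31 to 0.32, and the 5 Ndufs subunits from -0.099 to 0.088. Ndufab1, the mitochondrial acyl carrier protein that is also a complex I subunit and is counted here with the Ndufa family, had 9.32 and 9.24 at 22.4 mM against 8.92 and 9.22 at 11.2 mM.

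Of the 7 complex I assembly factors none passed the test and the median was -0.031. Ndufaf5, known from human cells to hydroxylate an arginine of Ndufs7, had 8.45 and 8.56 at 22.4 mM against 8.29 and 8.22 at 11.2 mM, without overlap, for a difference of 0.25 (SE 0.10, adjusted p = 0.566, limma). Ndufaf7, a methyltransferase, had 6.83 and 6.98 at 22.4 mM against 7.09 and 7.03 at 11.2 mM, a difference of -0.16 (SE 0.11) that was -0.083 without replicate 1 of 22.4 mM. The other 5 overlapped between the groups.

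Complex III, the cytochrome bc1 complex, had the most positive median of the 4 complexes, 0.12 over 8 genes, and without replicate 1 of 11.2 mM that median was 0.032. Uqcrfs1, the Rieske iron-sulfur protein, had 8.99 and 8.96 at 22.4 mM against 8.72 and 8.83 at 11.2 mM. Both arrays at 22.4 mM were higher, with a difference of 0.21 (SE 0.10, adjusted p = 0.620, limma). Uqcrc1, a core subunit, had 8.32 and 8.48 against 8.22 and 8.24, a difference of 0.17 (SE 0.11) that was 0.091 without replicate 2 of 22.4 mM, while its partner Uqcrc2 had 10.12 and 10.11 against 10.13 and 10.14, a difference of -0.015 (SE 0.093). The 2 core subunits thus stood at 0.17 and -0.015, with 95% intervals from -0.11 to 0.44 and from -0.26 to 0.23.

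In Uqcrh, Uqcrq and Cyc1 replicate 1 of 11.2 mM stood apart from replicate 2. Uqcrh, the hinge protein that helps dock cytochrome c1 with cytochrome c, had 10.28 and 10.45 at 22.4 mM against 9.88 and 10.31 at 11.2 mM, with overlap. Its difference was 0.27 (SE 0.18), and 0.058 without replicate 1 of 11.2 mM and 0.49 without replicate 2. Uqcrq, a small subunit near cytochrome b, had 8.81 and 8.85 at 22.4 mM against 9.22 and 8.80 at 11.2 mM. Its difference was -0.18 (SE 0.17), and 0.033 without replicate 1 of 11.2 mM and -0.39 without replicate 2. Cyc1, cytochrome c1, had 9.14 and 9.24 at 22.4 mM against 8.98 and 9.18 at 11.2 mM, with overlap. Its difference was 0.11 (SE 0.12), and 0.0059 without replicate 1 of 11.2 mM and 0.21 without replicate 2. Cytochrome c itself, Cycs, had only probe sets with several symbols and was not described.

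Complex IV, cytochrome c oxidase, had a median difference of 0.017 over 17 genes, with 9 positive and 8 negative, and -0.028 without replicate 1 of 11.2 mM. Cox4i1, the largest nuclear subunit known as a site where ATP regulates the enzyme, had 10.44 and 10.37 at 22.4 mM against 10.46 and 10.49 at 11.2 mM, a difference of -0.071 (SE 0.096). Cox5b, which binds zinc, had 10.24 and 10.38 at 22.4 mM against 10.17 and 10.28 at 11.2 mM, and the groups overlapped. Without replicate 2 of 22.4 mM the difference was -0.034 for Cox4i1, and for Cox5b it was 0.019, against 0.087 with all arrays. Without replicate 1 of 22.4 mM the differences were -0.11 for Cox4i1 and 0.16 for Cox5b. The most positive values among brighter probe sets were those of Cox8a and Cox7b, small transmembrane subunits. Cox8a had 10.40 and 10.54 at 22.4 mM against 10.16 and 10.34 at 11.2 mM, a difference of 0.22 (SE 0.12, adjusted p = 0.656, limma). Cox7b had 10.58 and 10.62 against 10.38 and 10.50, a difference of 0.16 (SE 0.10). Neither overlapped between the groups, and without replicate 1 of 11.2 mM the differences were 0.13 and 0.097. Without replicate 2 of 11.2 mM they were 0.31 and 0.22.

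Several complex IV subunits exist as alternative isoforms used in muscle, lung or testis, and the array measured 6 of them, with Ndufa4l2 as a 7th alternative form in the rule. Mean signals of these 7 lay between 3.17 and 5.24, near or below the median probe set, so they were not shown to be above background. Cox6a2, the heart and skeletal muscle form, had 4.74 and 4.73 at 22.4 mM against 5.26 and 4.81 at 11.2 mM. Its groups did not overlap, and its difference was -0.30 (SE 0.17), and -0.075 without replicate 1 of 11.2 mM. Cox4i2, an oxygen-responsive form abundant in lung, had 5.34 and 5.11 at 22.4 mM against 5.23 and 5.29 at 11.2 mM, and the groups overlapped. Cox6b2, Cox7b2, Cox8b and Cox8c differed by 0.017, 0.047, 0.056 and 0.038, with overlap in each. Cox6a1, the common counterpart of Cox6a2, differed by -0.015, and Cox7a2l, known for joining complexes III and IV in supercomplexes, by -0.027, with overlap too. Cox6b1 gave 3.11 and 3.08 at 22.4 mM against 2.58 and 3.18 at 11.2 mM, and Cox6c gave 6.84 and 6.96 against 6.80 and 7.14, so replicates at 11.2 mM stood farther apart than the groups. Cox6b1, with a mean of 2.99, was the 1 common subunit below the median signal and likewise was not shown to be above background. It is counted among the common subunits and among those with YY1 letters.

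Ndufa4 was named as a complex I subunit and later placed in complex IV, and its paralogue Ndufa4l2 is induced by hypoxia in many cells. Both were counted by name in complex I here. Ndufa4 had 11.39 and 11.47 at 22.4 mM against 11.36 and 11.51 at 11.2 mM, a difference of -0.0062 (SE 0.11, 95% interval -0.29 to 0.28). Ndufa4l2 had 5.03 and 5.09 at 22.4 mM against 5.06 and 5.10 at 11.2 mM, a difference of -0.017 (SE 0.096, 95% interval -0.27 to 0.23). In both genes the groups overlapped.

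ATP synthase had a median difference of 0.034 over 20 genes, with 12 positive and 8 negative, and 0.0083 without replicate 1 of 11.2 mM. Atp5f1a, the alpha subunit, had 11.23 and 11.29 at 22.4 mM against 11.11 and 11.26 at 11.2 mM, a difference of 0.076 (SE 0.11) that was 0.0017 without that array. Atp5f1b, the catalytic beta subunit, had 11.21 and 11.22 against 11.02 and 11.15, a difference of 0.13 (SE 0.10) without overlap. The delta subunit Atp5f1d differed by 0.17 (SE 0.12), and the gamma subunit Atp5f1c, of the rotating shaft, had dim signals of 4.99 and 4.71 against 4.83 and 5.04. Atp5mc3, which encodes the membrane ring subunit c, had 9.48 and 9.51 against 9.27 and 9.47, a difference of 0.12 (SE 0.11). Without replicate 1 of 11.2 mM the difference was 0.060 for Atp5f1b and 0.025 for Atp5mc3. Without replicate 2 of 11.2 mM it was 0.19 for Atp5f1b and 0.22 for Atp5mc3.

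The stalk and membrane subunits held both the widest difference and some of the narrowest. Atp5mf, a small membrane subunit, had 7.45 and 7.47 at 22.4 mM against 6.51 and 7.52 at 11.2 mM. Replicate 1 of 11.2 mM alone was low, and the difference of 0.44 (SE 0.34, adjusted p = 0.757, limma) was -0.058 without it and 0.95 without replicate 2 of 11.2 mM. Atp5pd, of the peripheral stalk, had 8.41 and 8.54 at 22.4 mM against 8.25 and 8.27 at 11.2 mM, without overlap, for a difference of 0.21 (SE 0.10, adjusted p = 0.615, limma). Atp5po and Atp5pb, of the same stalk, differed by -0.019 and 0.091. Atp5if1, which inhibits ATP hydrolysis by the enzyme, had 10.65 and 10.59 at 22.4 mM against 10.81 and 10.66 at 11.2 mM, a difference of -0.12 (SE 0.11, 95% interval -0.40 to 0.17) that was -0.038 without replicate 1 of 11.2 mM.

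**Figure D3:**
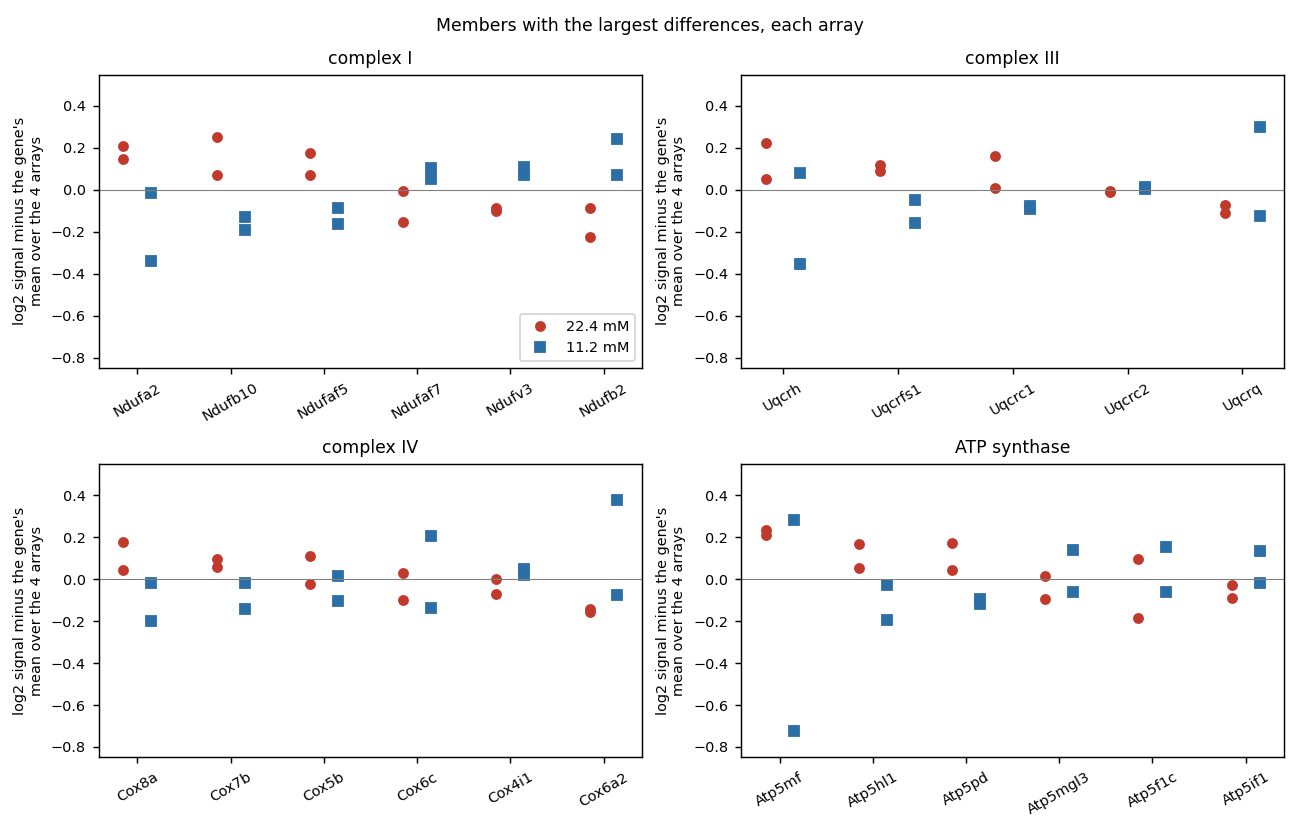
Log2 signal of each array minus the gene's mean over the 4 arrays (y axis) for the members with the most positive and most negative differences in each complex, with 22.4 mM as red circles and 11.2 mM as blue squares. The isolated low square is Atp5mf on replicate 1 of 11.2 mM, with a signal of 6.51 against 7.45 to 7.52 on the other arrays.

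The rule also took in 17 copies by name, pseudogenes or like copies of subunit genes, whose probes can share signal with the parent gene. Their median difference was -0.019, with 7 positive and 10 negative. Atp5hl1 had 5.67 and 5.79 at 22.4 mM against 5.59 and 5.42 at 11.2 mM, without overlap and with a difference of 0.22 that was 0.14 without replicate 2 of 11.2 mM, and Atp5mgl3 had 6.23 and 6.34 against 6.47 and 6.26, with overlap. Without the copies, a choice made after the data were seen, 0 of 72 members passed the test and the median was -0.0029. A further 14 probe sets carried several symbols of which at least 1 met the naming rule. They were left out by the rule, and differed by -0.33 to 0.21.

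Over the members, distances between arrays were of like size within a glucose group and between the groups. In mean absolute size, replicates lay 0.096 apart at 22.4 mM, and 0.16 apart at 11.2 mM. Pairs of a 22.4 mM array with replicate 2 of 11.2 mM differed by 0.095 and 0.11, and pairs with replicate 1 of 11.2 mM by 0.14 and 0.18. The mean between groups was 1.03 times that between replicates, 1.13 times over all probe sets and 1.42 times over single-symbol genes at or above the median signal. Replicate 1 of 11.2 mM was below replicate 2 in 57 of the 89 members, and by complex in 24 of 44, 7 of 8, 13 of 17 and 13 of 20 for complexes I, III, IV and ATP synthase, where all probe sets gave 18911 of 36685. Replicate 1 of 22.4 mM was below its replicate 2 in 59 of the 89, and by complex in 31, 6, 9 and 13, where all probe sets gave 17847 of 36685. Among 2435 single-symbol genes at or above the members' median signal, replicate 1 was below replicate 2 in 1410 at 11.2 mM and 1499 at 22.4 mM. The positive medians of complex III and ATP synthase fell to 0.032 and 0.0083 without replicate 1 of 11.2 mM. They rose to 0.19 and 0.11 without replicate 2 of 11.2 mM.

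**Figure D4:**
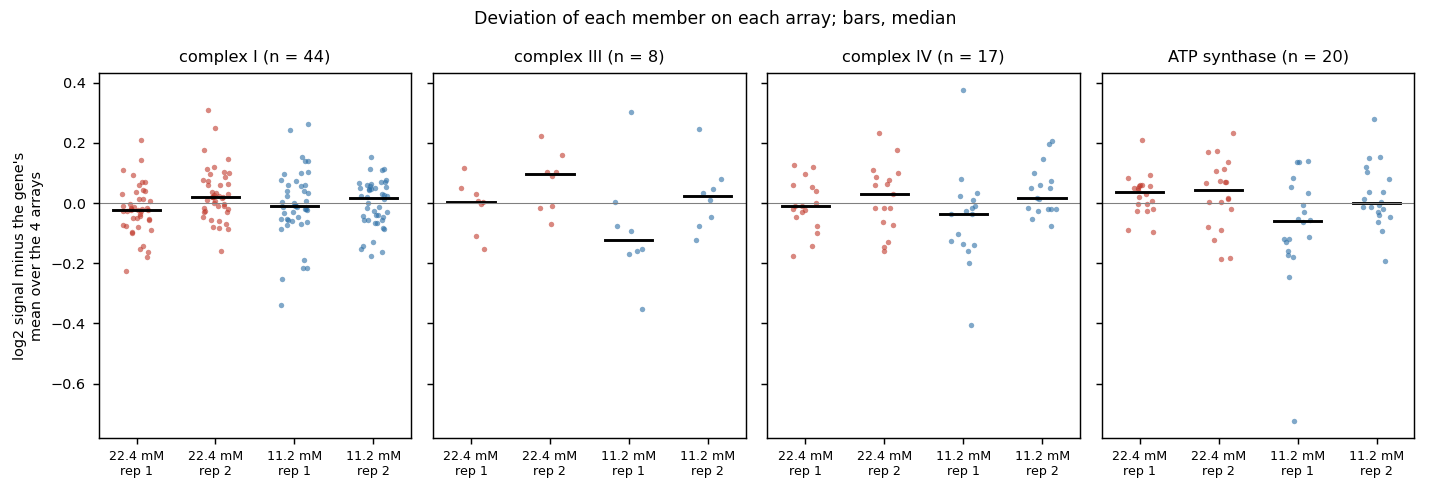
Log2 signal of each member on each array minus its mean over the 4 arrays (y axis), by complex, with 22.4 mM arrays in red and 11.2 mM arrays in blue and the median as a black bar. In complex III the median lay at 0.0053 and 0.096 on the 22.4 mM arrays, against -0.12 and 0.023 on the 11.2 mM arrays.

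The groups did not overlap in 29 of 89 members (32.6%), against 40.6% of all probe sets. Of these 19 were higher at 22.4 mM, where the share of all probe sets was 19.6%, and 10 were lower, where it was 21%. By complex, the groups did not overlap in 13 of 44 genes of complex I, 3 of 8 of complex III, 5 of 17 of complex IV and 8 of 20 of ATP synthase. Among the 57 common subunits 17 were higher without overlap and 4 lower. Among 2435 single-symbol genes at or above the members' median signal, 747 were higher without overlap and 565 lower. Of the 77 members at or above the median signal, 27 did not overlap, against 4453 of 8544 single-symbol genes at or above it. Differences were also smaller in size than among those genes: 83.1% of these 77 members differed by at most 0.2, against 64.7% of 8467 other genes, with median absolute differences of 0.074 and 0.137. The replicates differed less in them too, with a median absolute difference at 11.2 mM of 0.12 in these members and 0.16 in all 8544 genes. The 77 members were also brighter, with a median signal of 9.05 against 7.72 in the 8544 genes. In the 2435 genes at or above the members' median signal, median absolute differences were 0.115 between the groups and 0.14 between the 11.2 mM replicates. These comparisons describe the lists and were not tested.

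**Figure D5:**
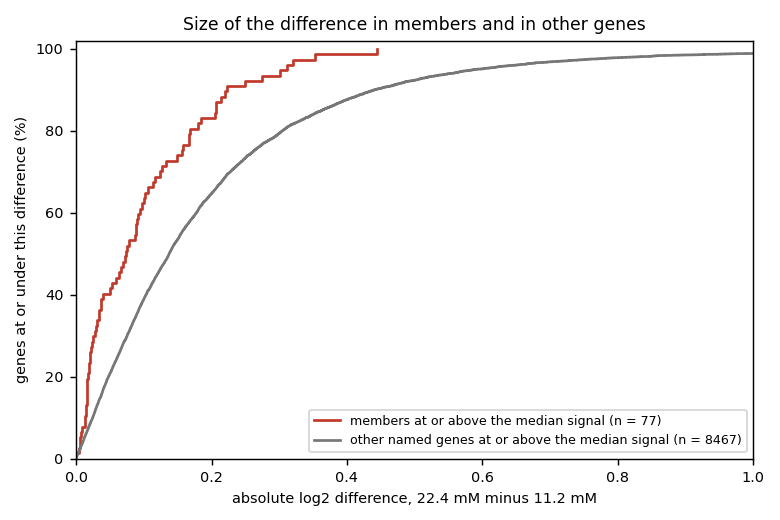
Cumulative share of genes (y axis, percent) at or under a given absolute log2 difference between 22.4 mM and 11.2 mM (x axis) for the 77 members at or above the median signal (red) and 8467 other single-symbol genes at or above it (grey). The red line reaches 83.1% at a difference of 0.2, where the grey line is at 64.7%.

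Further lists of the pathway covered complex II, assembly factors, coenzyme Q synthesis, biogenesis, carriers, electron entry and inner membrane organisation. In these lists 0 genes passed the test over all probe sets. In the same order, the groups did not overlap in 4 of 6, 16 of 30, 9 of 10, 8 of 18, 1 of 4, 3 of 10 and 6 of 10 measured genes, against 40.6% of all probe sets. The 1 of 4 in the carriers list was the inhibitor Atp5if1, which is also a member, and the carriers themselves overlapped. Complex II, which joins the citric acid cycle to the chain, had 6 of 8 listed genes measured and a median of 0.094. At an unadjusted p under 0.05, 1 was higher and 0 lower, against 4.36% and 4.75% of all probe sets. Sdhd, a membrane anchor subunit, had 8.75 and 8.83 at 22.4 mM against 8.45 and 8.42 at 11.2 mM, a difference of 0.35 (SE 0.096, unadjusted p = 0.016, adjusted p = 0.439, limma). Sdhb and Sdha, the iron-sulfur and flavoprotein subunits, differed by 0.12 and 0.13, each without overlap.

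Of 40 further assembly factors 30 were measured, with a median of 0.018, and 2 were higher and 1 lower at an unadjusted p under 0.05, against 4.36% and 4.75% of all probe sets. Lyrm7, the chaperone that brings the Rieske protein Uqcrfs1 into complex III, had 6.89 and 7.10 at 22.4 mM against 7.74 and 7.48 at 11.2 mM. Its difference of -0.61 (SE 0.14, 95% interval -0.98 to -0.24, unadjusted p = 0.0090, adjusted p = 0.383, limma) had the smallest unadjusted p in the list, and its client Uqcrfs1 stood at 0.21. Sco1, a copper chaperone of complex IV, had 7.39 and 7.38 against 7.14 and 7.08, a difference of 0.28 (SE 0.095). Uqcc2, a factor for cytochrome b, differed by 0.31 (SE 0.11).

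Coenzyme Q synthesis had 10 of 15 listed names measured and a median of -0.089. The groups did not overlap in 9, of which 3 were higher and 6 lower, against 19.6% and 21% of all probe sets. At an unadjusted p under 0.05, 0 were higher and 2 lower, against 4.36% and 4.75% of all probe sets. Coq8b, an atypical kinase of the pathway, had 5.83 and 5.86 at 22.4 mM against 6.08 and 6.25 at 11.2 mM, a difference of -0.32 (SE 0.11, adjusted p = 0.504, limma). Coq4 differed by -0.33 (SE 0.10, adjusted p = 0.473, limma) and Coq10b, a coenzyme Q binding protein, by 0.29 (SE 0.13). Regulators of mitochondrial biogenesis had 18 of 23 names measured and a median of 0.023, with 0 of 18 at an unadjusted p under 0.05, against 4.36% higher and 4.75% lower over all probe sets. The smallest p-values there belonged to the mitochondrial transcription termination factor family members Mterf2 and Mterf3, with -0.24 and 0.26, and the nuclear receptor Esrra, with 6.81 and 6.85 at 22.4 mM against 6.59 and 6.64 at 11.2 mM.

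Genes that feed electrons in or let protons back had 10 of 12 names measured. At an unadjusted p under 0.05, 1 was higher and 1 lower, against 4.36% and 4.75% of all probe sets. Prodh, proline dehydrogenase, had 5.20 and 5.37 at 22.4 mM against dim signals of 4.77 and 4.87 at 11.2 mM, a difference of 0.47 (SE 0.11, adjusted p = 0.393, limma). Sqor, which oxidises sulfide, had 6.26 and 6.44 against 6.94 and 6.74, a difference of -0.49 (SE 0.13, adjusted p = 0.422, limma). Dhodh, of pyrimidine synthesis, differed by 0.30 (SE 0.19), with overlap. Of the inner membrane organisation list 10 of 15 names were measured, with a median of -0.022. By the same p threshold 0 were higher and 1 lower. Apoo, Apool and Micos13, components of the MICOS complex that shapes cristae, differed by -0.29, -0.22 and -0.22, each without overlap, while Chchd3 and Micos10, of the same complex, differed by 0.092 and 0.12, also without overlap. The ADP/ATP carriers Slc25a4 and Slc25a31 differed by 0.11 and -0.082, both with overlap. Slc25a31, with a mean of 3.76, was below the median signal and was not shown to be above background.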

How the data were processed

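Total RNA of INS-1 cells was amplified and hybridised as biotin-labelled cDNA to 4 Affymetrix arrays, per the labels' protocols. The authors deposited 1 table of log2 values for 36685 probe sets. Their range was the ground for taking the base as 2. How the authors corrected and normalized them was not given in the sources used here. Values were used as deposited. Platform annotation gave 14824 probe sets 1 gene symbol and 829 several; the others are unnamed here. The 22.4 mM arrays were tested against the 11.2 mM arrays by a two-sided limma fit (lmFit, then eBayes as by default, limma 3.58.1, R 4.3.3) that left 2 degrees of freedom, with Benjamini-Hochberg adjustment over all probe sets and a threshold of 0.05. Intervals are 95% intervals of that fit. The number of arrays limits the precision, and background levels were not given. The fit was tested on simulated data. Alternatives were quantile normalization, other choices of probe sets, a trended robust variance, a replicate term and leaving out each array.

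Named members were, by rule, those past the threshold, the 3 most positive and 3 most negative differences of each complex at or above the median signal, and fixed defining subunits and isoforms. From further lists the 3 smallest p-values were named. Ndufv2, Ndufs3, Ndufs7, Ndufs8, Ndufb3, Ndufab1, Atp5f1d, Atp5po, Atp5pb, Cox7b2, Chchd3 and Micos10, with Atp5me and Ndufa6 from the promoter search, were added after their values were seen. Members and lists were chosen with earlier results of these data known. Promoter windows came from RefSeq (GRCr8).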

Additional observations from a re-analysis of the deposited data

How the results depend on the processing

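No member passed the adjusted threshold under any alternative run, and the lowest adjusted p of a member over them was 0.167, for Atp5mf without replicate 2 of 11.2 mM. The further lists likewise had 0 genes past it under every alternative. Restricting the fit to single-symbol probe sets called 62 of 14824 probe sets, none of them a member, where the fit over all called 0 of 36685. With brighter probe sets only, the complex IV median was -0.031, and with the mean of a gene's probe sets the ATP synthase median was 0.064. The replicate block called 0 members (lowest adjusted p = 0.62, limma). In this balanced layout a replicate term cannot change the differences. The medians and the 29 members without overlap therefore had to stay as they were. Same-numbered arrays' deviations from their group means correlated at -0.0778, so the numbers were not taken to pair the arrays. Quantile normalization turned Ndufa4l2 to 0.0018.

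With 1 array left out, the count without overlap was 51 to 66, with 67.9% to 74.8% of all probe sets. Medians then ranged from -0.012 to 0.021 for all members, -0.028 to 0.012 for complex I, 0.032 to 0.19 for complex III, -0.028 to 0.043 for complex IV and 0.0083 to 0.11 for ATP synthase. An arm left with 1 array was assumed to vary like the other. Differences of named members that took both signs then ranged from -0.084 to 0.055 for Cox6a1, -0.080 to 0.068 for Ndufa4, -0.046 to 0.012 for Ndufa4l2, -0.23 to 0.049 for Atp5f1c, -0.15 to 0.078 for Cox4i2, -0.036 to 0.070 for Cox6b2, -0.15 to 0.26 for Cox8b, -0.39 to 0.033 for Uqcrq, -0.18 to 0.024 for Atp5mgl3, -0.058 to 0.95 for Atp5mf, -0.090 to 0.51 for Cox6b1, -0.095 to 0.041 for Cox7a2l, -0.24 to 0.10 for Cox6c and -0.058 to 0.0093 for Ndufv1. The cause of these moves was not tested. Signal over background is unknown, so differences of dim probe sets can be understated.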
